A study of Mus musculus with 9 samples.

Results

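The comparison is between livers of mice given MSA before concanavalin A, the group MSA_ConA, and livers of mice given saline, the group Control, across all genes of the deposited count table. It uses 6 of the series' 9 libraries, the 3 MSA_ConA and the 3 Control libraries, chosen by their group labels; the count columns headed M1 to M3 were read as MSA_ConA, the one group whose name begins with that letter. Control mice received phosphate-buffered saline into the tail vein. MSA_ConA mice received 250 mg/kg of MSA into the peritoneum and, 6 h later, 20 mg/kg of concanavalin A into the tail vein, and livers were taken 12 h after the lectin. MSA was read as mesaconate, the metabolite that the study's title names. All mice are labelled as wild-type C57BL/6 males (C57BL/6J in the growth protocol), 8 weeks old and 20 to 25 g in weight. The groups differ both in MSA and in concanavalin A, so the effects of these agents cannot be told apart in this comparison. The labels name no peritoneal injection for Control.

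Concanavalin A is a plant lectin that binds sugars on T cells and liver macrophages, and given into a vein it brings on an immune hepatitis driven by T cell cytokines such as interferon gamma and tumour necrosis factor. Hepatocytes answer cytokines of the interleukin-6 and interleukin-1 families with the acute-phase response, the secretion of plasma proteins such as fibrinogen, haptoglobin and serum amyloid A. Mesaconate is a dicarboxylate related to itaconate, which activated macrophages make through the enzyme encoded by Acod1.

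The libraries of a group are numbered 1, 2 and 3, and those numbered 1 stood apart from those numbered 2 and 3. Control 2 and 3 correlated at 0.983 in log levels over genes, and Control 1 with them at 0.902 and 0.89. MSA_ConA 2 and 3 correlated at 0.964, and MSA_ConA 1 with them at 0.779 and 0.761. MSA_ConA 1 was closer to Control 1 (0.859) than to its own group, while Control 1 was closer to its own group. Levels are given as CPM, a gene's counts per 1000000 of its library after TMM scaling, which takes most genes as equal, and 3 values in a row are libraries 1, 2 and 3. Xist, the noncoding RNA of X inactivation in females, measured 0.0745, 864 and 667 CPM in Control and 0.132, 1131 and 954 CPM in MSA_ConA, against the male label of numbers 2 and 3. Nnt, a transhydrogenase gene partly deleted in C57BL/6J, measured 30.2, 168 and 219.7 CPM and 29.8, 229.7 and 266 CPM. Arntl, a core gene of the circadian clock, measured 22, 1.83 and 1.35 CPM and 29.5, 3.60 and 1.70 CPM. These 3 genes go against a uniform group of animals, so every library is named below by its label only. Totals ran from 13294600 to 17276391 counts, so a single count was worth 0.0515 to 0.132 CPM, and TMM factors were 0.571 in the library labelled MSA_ConA 1, 0.95 in Control 1 and 1.11 to 1.26 in the other 4. Of 42188 genes, 14603 passed the filter on low counts. All 4 hepatocyte markers were found in every library, with a summed level of 93181 to 130719 CPM.

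The metallothionein genes Mt2 and Mt1, whose small cysteine-rich products bind zinc and copper, held the first and second highest fold between MSA_ConA 1 and Control 1 among genes with counts in both and at least 50 CPM. They lie side by side on chromosome 8, and their promoters are shown because both genes were high in the same library. The RefSeq sequences (GRCm38.p6, plus strand, 250 bases before to 50 after the start) are chr8:94172368-94172667 for Mt2 and chr8:94178839-94179138 for Mt1. Capitals mark matches, on either strand, to the core of the metal response element written as TGCGCNC or TGCACNC, which overlap in no position here.
Mt2: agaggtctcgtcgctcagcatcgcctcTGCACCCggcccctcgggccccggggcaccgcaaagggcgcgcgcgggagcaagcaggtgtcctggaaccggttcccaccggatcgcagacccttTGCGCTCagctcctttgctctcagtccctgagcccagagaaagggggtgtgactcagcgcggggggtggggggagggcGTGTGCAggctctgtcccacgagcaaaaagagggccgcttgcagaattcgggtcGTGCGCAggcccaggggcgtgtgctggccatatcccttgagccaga
Mt1: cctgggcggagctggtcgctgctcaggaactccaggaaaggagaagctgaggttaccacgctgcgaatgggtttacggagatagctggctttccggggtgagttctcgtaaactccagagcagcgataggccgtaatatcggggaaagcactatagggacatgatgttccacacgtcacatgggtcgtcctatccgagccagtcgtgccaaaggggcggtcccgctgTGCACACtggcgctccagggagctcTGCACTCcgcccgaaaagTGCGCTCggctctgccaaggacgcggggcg
The Mt2 promoter held 2 matches to each form, and the Mt1 promoter 1 and 2. Of 32851 promoters of the same length, 15.4% held TGCGCNC and 12.6% held TGCACNC. A match is a description of the letters, not a site shown to be bound.

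Mt2 measured 31.4, 11.2 and 4.21 CPM in the Control libraries and 15179.8, 4.54 and 4.38 CPM in the MSA_ConA libraries. The library labelled MSA_ConA 1 stood far above the 5 others, while MSA_ConA 2 and 3 lay within the Control range. Mt1 measured 40.1, 166 and 84.2 CPM in Control and 18694, 66.3 and 117 CPM in MSA_ConA, with the same single high library. Between the libraries numbered 1, Mt2 was 484-fold (440.0 to 534) and Mt1 467-fold (429 to 509) higher, where the brackets give exact 95% limits that cover counting error only. Slc39a14, an importer of zinc and iron on hepatocytes that interleukin-6 is known to induce, measured 134, 239 and 276 CPM and 7373, 294 and 263 CPM, again high in 1 library. Slc30a1, a zinc exporter, measured 22.2, 38 and 52.5 CPM and 64.5, 56.5 and 58.5 CPM, a smaller difference in which the groups did not overlap.

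Over all libraries, no gene passed the test of MSA_ConA against Control. The quasi-likelihood test of edgeR on the series' 9 libraries left 0 of 14603 genes with a Benjamini-Hochberg adjusted p under 0.05, and the smallest was 0.937. Unadjusted, 730 genes (5% of those tested) had p under 0.05, 473 higher (3.24%) and 257 lower (1.76%), and chance gives 730. With the library number as a block the unadjusted count was 1096, and with number 1 against numbers 2 and 3 as a block 1620, with a smallest adjusted p of 0.422 by edgeR, so the count near chance belongs to the fit without a block. limma-voom called 0 genes (492 unadjusted). DESeq2 called 55 (0.377%), 53 higher and 2 lower, and of the 53 there were 46 with their highest level in the library labelled MSA_ConA 3. They include 9 of the 13 skeletal muscle markers tested, which are described with the cell type markers. The spread that these tests use contains the division between number 1 and the other numbers. In simulated counts with a spread of that size, but no division by number built in, the edgeR test recovered 2% of 4-fold and 52% of 16-fold changes. Mt2 shows the size of the spread in the data, with a log2 fold change of 8.35 (SE 3.86, adjusted p = 0.937 by edgeR). The labels tie no library to a named animal, so the p-values speak only of the spread seen here, which may be partly technical.

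Some genes kept their groups apart in every library. All 3 MSA_ConA libraries were above all 3 Control libraries for 935 genes (6.4% of those tested) and below them for 1076 (7.37%). Interchangeable libraries would separate in this way for about 730 genes in each direction, and the counts were not tested against that. Since the libraries numbered 1 stood apart in each group, the libraries are not interchangeable, and that figure is no measure of chance here. Genes are named here by the widest gap between the groups. Scd1, the desaturase that makes monounsaturated fatty acids, measured 1481, 2219 and 2457 CPM in Control and 6797, 4494 and 4458 CPM in MSA_ConA. It was 4.59, 2.03 and 1.81 times higher within numbers 1, 2 and 3 (log2 fold change over all libraries 1.36, SE 0.49, adjusted p = 0.937 by edgeR). Trp53inp1, a p53-induced regulator of autophagy and cell death, measured 17.7, 18.2 and 18.5 CPM and 188, 32.4 and 32.4 CPM. Its Control libraries lay within 1 CPM of each other although their numbers differ, and every MSA_ConA library was above them. Pdk4, the kinase that shuts off pyruvate dehydrogenase in fasting, measured 6.26, 2.71 and 4.32 CPM and 499.6, 13.1 and 96.2 CPM. It is also made by muscle, whose markers were high in MSA_ConA 2 and 3, and their part in its level was not tested.

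Further genes with a gap upward were Cpeb4, a translation regulator (16, 36.6 and 40.9 CPM in Control, 96.5, 82.3 and 67.7 CPM in MSA_ConA), and Pcm1, a protein of centriolar satellites (13, 13 and 14.7 and 44, 25.2 and 24.5 CPM). Chml, a Rab escort protein, measured 0.521, 0.939 and 1.56 CPM and 34.1, 2.93 and 3.14 CPM. The other 4 of the 10 genes with the widest upward gap were Atp2a1, Myom1, Pygm and Ampd1, which encode a calcium pump, a sarcomere protein, glycogen phosphorylase and AMP deaminase of skeletal muscle.

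Downward, 10 genes were named by the same gap. Tmub1, a ubiquitin-like membrane protein, measured 12.2, 11.8 and 11.8 CPM in Control and 5.79, 5.76 and 5.35 CPM in MSA_ConA. It was 2.11, 2.06 and 2.21 times lower within numbers 1, 2 and 3 (log2 fold change -1.08, SE 0.32, adjusted p = 0.937 by edgeR). Cldn3, a claudin of hepatocyte and bile duct tight junctions, measured 161, 114 and 112 CPM and 19.8, 68.1 and 62.2 CPM. Gipc1, a PDZ protein of receptor trafficking, measured 17.9, 23.3 and 22.2 CPM and 6.19, 9.85 and 9.42 CPM, and Cdk10, a cyclin-dependent kinase, 30.5, 31.6 and 26.5 CPM and 11.6, 15 and 16.1 CPM; these were the 2 genes that DESeq2 called lower. Fkbp4, an Hsp90 co-chaperone of steroid receptors, measured 264, 252 and 252 CPM and 92.2, 162 and 154 CPM. Zfp444, Fam213b, Cep250, Cc2d1a and Fignl2 complete the 10. Median gene length was 4971 bases for those higher and 2789.5 for those lower, and median GC content 44.0% and 55.1%, a contrast that also marks the libraries numbered 2 and 3 described below; its part in the count was not tested.

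**Figure D1:**
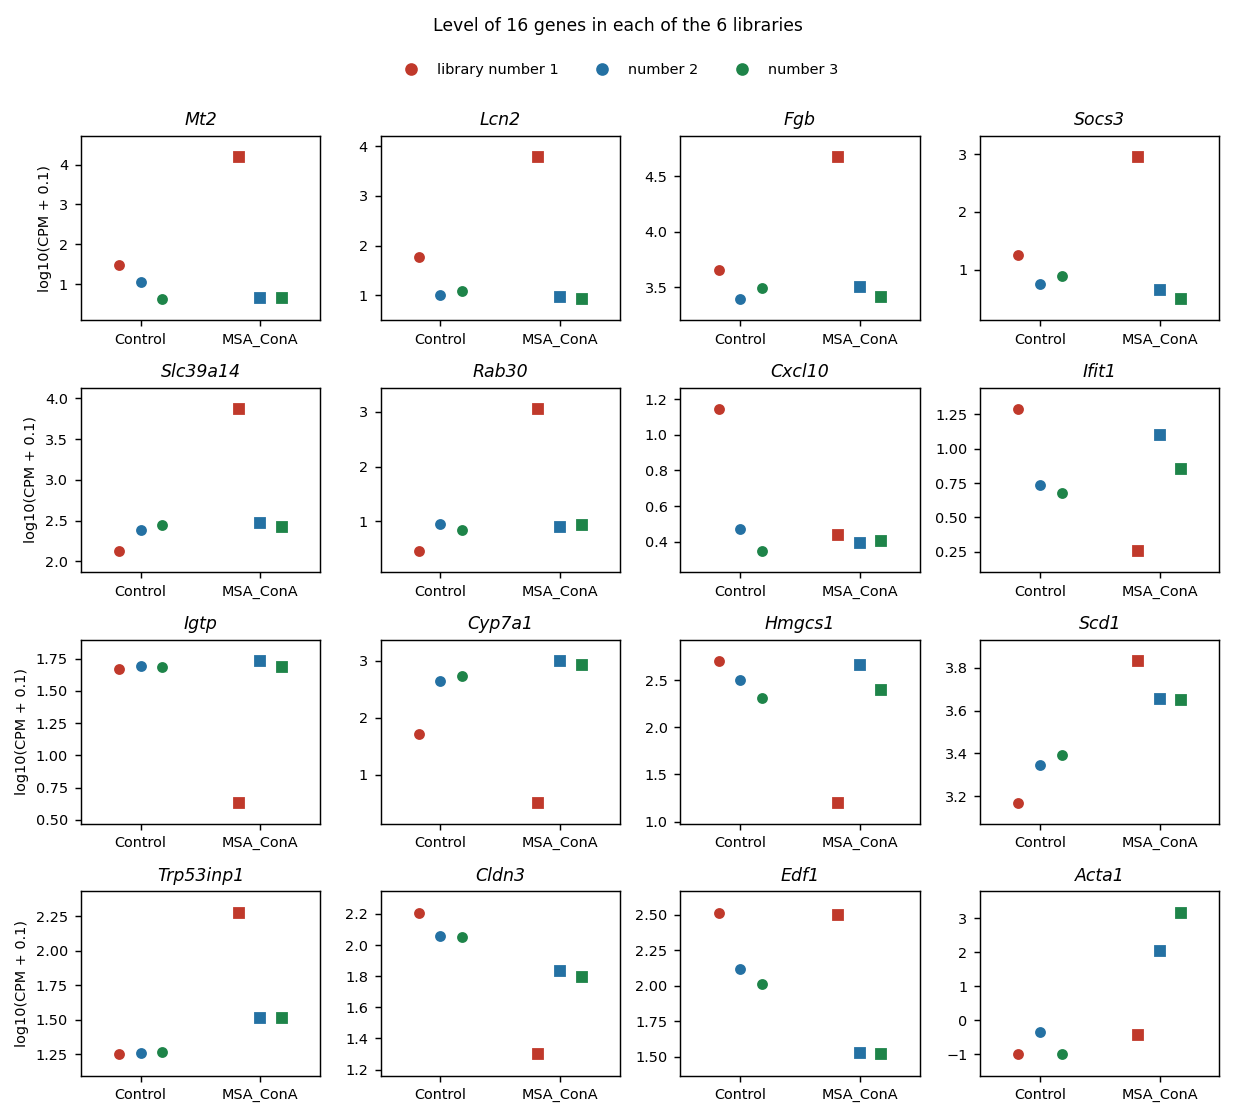
Level of 16 genes in the 6 libraries, as log10 of CPM + 0.1, with Control libraries as circles, MSA_ConA libraries as squares and the library number as colour; axes differ between panels. Mt2, Lcn2, Fgb, Socs3, Slc39a14 and Rab30 are high in MSA_ConA 1 alone, Scd1 and Trp53inp1 are above Control in all 3 MSA_ConA libraries, Cldn3 is below in all 3, and Acta1, a muscle actin, is high in MSA_ConA 2 and 3.

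Within number 1 the difference was large and within numbers 2 and 3 it was small. Ratios of CPM + 1 were taken in each number, and genes past 4-fold were counted if the higher of the 2 libraries reached 10 CPM. In number 1, 661 genes passed upward (4.53%) and 440 downward (3.01%). The counts were 26 and 12 in number 2 (0.178% and 0.0822%) and 177 and 4 in number 3 (1.21% and 0.0274%). Of the 661 genes, 580 were within 2-fold in both other numbers, as were 409 of the 440. The genes past 4-fold upward in all 3 numbers were Atp2a1 and Pygm. Each number has 1 library per group, so these counts have no replicate check. The difference between the effects was tested in 1 edgeR model, in which the lone library of number 1 is assumed to vary like those numbered 2 and 3. With 1 library per group in number 1, a difference between single animals and an effect of the injections cannot be told apart, and the counts from this model describe these libraries. In it, the MSA_ConA effect differed for 4767 of 14603 genes (32.6%), more positive in number 1 for 2342 (16%) and more negative for 2425 (16.6%). Scaling to library totals in place of TMM factors gave 956 and 5227, since it moves the median gene of number 1 from -0.05 to -0.57 on the log2 scale. Offsets for GC content and length, added after seeing the data and possible for 12760 genes, gave 2785 and 1956, where the model without them called 2117 and 2134 of the same genes.

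**Figure D2:**
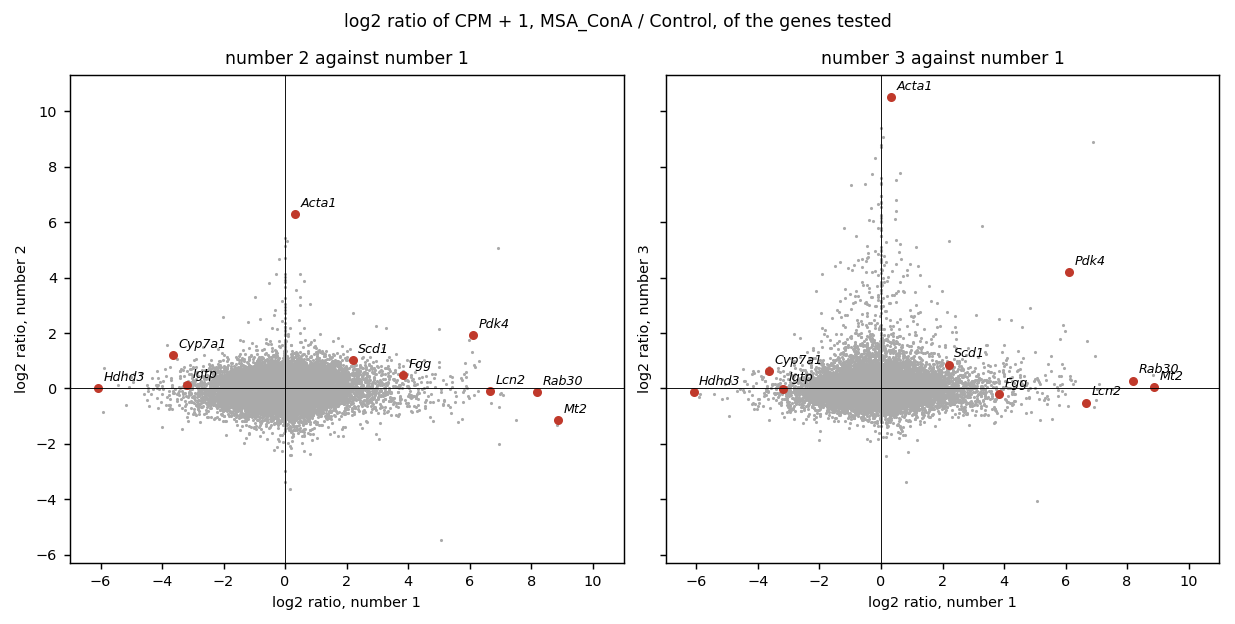
Log2 ratio of CPM + 1, MSA_ConA over Control, for the genes tested, in number 2 (left) and number 3 (right) against number 1, with 10 genes marked. Most of the spread lies along the axis of number 1; Acta1 and other muscle genes lie along the axes of numbers 2 and 3, most of all of number 3.

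The genes with the highest single-pair ratios cover metal binding, membrane traffic, growth arrest and lipid storage. They were picked by that ratio, so a test of the same difference would be no separate support for them. Rab30, a Golgi GTPase, measured 2.83, 8.77 and 6.92 CPM in Control and 1112, 7.91 and 8.65 CPM in MSA_ConA. It was 393-fold (286 to 556) higher in number 1 (difference between the effects 8.54 on the log2 scale). Fbf1, a protein of the cilium base, measured 15.4, 9.97 and 11.4 CPM and 2065, 8.47 and 8.44 CPM. Ppp1r3g, a glycogen-targeting subunit of protein phosphatase 1, had no count in Control 1 and 181 CPM in MSA_ConA 1, which is at least 812-fold higher if Control 1 is set to its floor of 3 counts. Cdkn1a, the cell cycle inhibitor p21, measured 9.01, 1.36 and 0.624 CPM and 1236, 0.498 and 2.63 CPM. Mfsd2a, a transporter of lysophosphatidylcholine, measured 8.19, 70.1 and 37 CPM and 1127, 16.7 and 23.2 CPM. Cidec, a lipid droplet protein of adipocytes and fatty liver, measured 3.28, 3.65 and 2.60 CPM and 441, 2.21 and 10.9 CPM. Crybb3, Gm27252, Sult1e1 and Cnih2 showed the same single high library, with 446, 406, 30.7 and 34.8 CPM in MSA_ConA 1 and at most 2.31 CPM in the 5 others.

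Among the lowest ratios, MSA_ConA 1 was the library apart for some genes and Control 1 for others. These genes too were picked by the ratio in number 1. Hdhd3, a phosphatase-like protein, measured 76, 33.6 and 39.5 CPM in Control and 0.132, 34.1 and 35.8 CPM in MSA_ConA. MSA_ConA 1 held 1 count of it (difference between the effects -9.03 on the log2 scale). Chac2, which degrades glutathione, measured 24.3, 40.7 and 41.9 CPM and 0.395, 63.9 and 59.9 CPM, with 3 counts in MSA_ConA 1. Keg1, an acyltransferase-like gene, measured 282, 28.5 and 37.6 CPM and 3.82, 47.7 and 32.5 CPM, high in Control 1. The noncoding RNA Neat1, a scaffold of nuclear paraspeckles, measured 2267, 313 and 367 CPM and 124, 342 and 310.2 CPM, and Clec2d, a ligand of a natural killer cell receptor, 401, 64.3 and 45.6 CPM and 18.7, 56.6 and 50.7 CPM. For Neat1 and Clec2d, Control 1 also stood above Control 2 and 3, so the ratio in number 1 joins a low MSA_ConA 1 to a high Control 1.

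Acute-phase genes were high in MSA_ConA 1 and not in MSA_ConA 2 or 3. The list's median log2 ratio was 2.60, -0.01 and -0.45 in numbers 1, 2 and 3, where the median of all genes tested was -0.05, 0.00 and 0.00. The effect in number 1 exceeded that in numbers 2 and 3 for 22 of 28 members tested, at an edgeR adjusted p under 0.05. It was below for 1, Crp, where the shares over all genes were 16% and 16.6%. For later lists too, counts of members with a higher or lower effect in number 1 are of genes that passed this test. Members that did not pass may lean either way, and a count near those shares is no result about its list. With library totals, which shift all genes of number 1 downward as given above, the counts were 20 and 2, where 956 and 5227 of all 14603 genes were called. For later lists the counts with library totals follow in brackets. Lcn2, which binds bacterial siderophores, measured 58.6, 9.86 and 12.2 CPM in Control and 6026, 9.13 and 8.24 CPM in MSA_ConA, 103-fold (95.8 to 110.5) higher in number 1. Steap4, a metalloreductase, measured 61.3, 71.1 and 88.7 CPM and 4454, 121 and 111 CPM; here all 3 MSA_ConA libraries were above Control. Il1r1, the interleukin-1 receptor, measured 48.5, 20.1 and 24.5 CPM and 1433, 29.2 and 24.7 CPM, and Cd14, a receptor for bacterial lipopolysaccharide, 4.47, 4.64 and 2.18 CPM and 152, 1.49 and 1.54 CPM. Hp, which encodes haptoglobin, a scavenger of free haemoglobin, measured 9221, 1702 and 1658 CPM and 59592, 1239 and 1049.7 CPM. A gene model named by the authors' pipeline and described there as serum amyloid A-1, picked after its values were seen, held 207614 counts in MSA_ConA 1, 6629 in Control 1 and 78 to 185 in the other 4 libraries. Markers of neutrophils, which also make Lcn2, summed highest in the same library, at 56.1 CPM, and their part in these levels was not tested. In number 3, 25 of the 28 acute-phase members were lower in MSA_ConA than in Control. This was not particular to the list, since 17 of 18 hepatocyte identity genes and secreted proteins were also lower there.

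The 3 fibrinogen chains were high in the same library. Fga measured 2221, 2051 and 3413 CPM in Control and 22738, 2832 and 2240.2 CPM in MSA_ConA, Fgb 4534, 2487 and 3117 CPM and 46824, 3168 and 2566 CPM, and Fgg 2897, 1985 and 2536 CPM and 41454, 2772 and 2188 CPM. In number 1 they were 10.2, 10.3 and 14.3 times higher, while in numbers 2 and 3 the ratios ran from 0.656 for Fga in number 3 to 1.40 for Fgg in number 2. Over the 28 coagulation and fibrinolysis genes tested, the effect in number 1 exceeded the others for 8 and was below for 3 (7 and 7). That list's median in number 1 was 0.56 and becomes -0.17 with library totals, while 5 members were past 4-fold upward and 0 downward.

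Genes of interleukin-6 signalling and its feedback had the highest median in number 1 of the lists with at least 5 members tested, 3.08, 0.32 and -0.26 in numbers 1, 2 and 3. All 12 members tested were higher in MSA_ConA 1 than in Control 1. The test of the difference called 7 with a higher effect there than in numbers 2 and 3 and 0 with a lower one (7 and 0). Socs3, the feedback inhibitor that interleukin-6 induces through STAT3, measured 17.9, 5.43 and 7.54 CPM in Control and 891, 4.37 and 2.99 CPM in MSA_ConA. It was 49.6-fold (43.6 to 56.7) higher in number 1 (difference between the effects 6.45 on the log2 scale). Il6ra, the receptor, measured 10.4, 48.6 and 54.5 CPM and 116, 57.8 and 37 CPM, and Socs1, a feedback inhibitor shared with interferon signalling, 0.521, 0.574 and 0.364 CPM and 15.7, 0.443 and 0.618 CPM. Il6 itself had no count in any of the 6 libraries, where a floor of 3 counts allows up to 0.154 to 0.395 CPM. Immediate early genes, transcription factors made within minutes of a signal, had a median of 2.48, -0.11 and 0.22. The test called 11 of 18 with a higher effect in number 1 and 0 with a lower one (9 and 0). Junb measured 20.4, 23.5 and 24 CPM and 773, 17.3 and 10.5 CPM, Egr1 7.15, 7.72 and 22.5 CPM and 259.5, 37.2 and 23 CPM, and Atf3, also a gene of the stress response, 7.52, 2.61 and 3.74 CPM and 195, 2.32 and 5.61 CPM. Egr1 is one of 2 members of that list whose groups did not overlap, with Control 3 and MSA_ConA 3 close at 22.5 and 23 CPM.

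**Figure D3:**
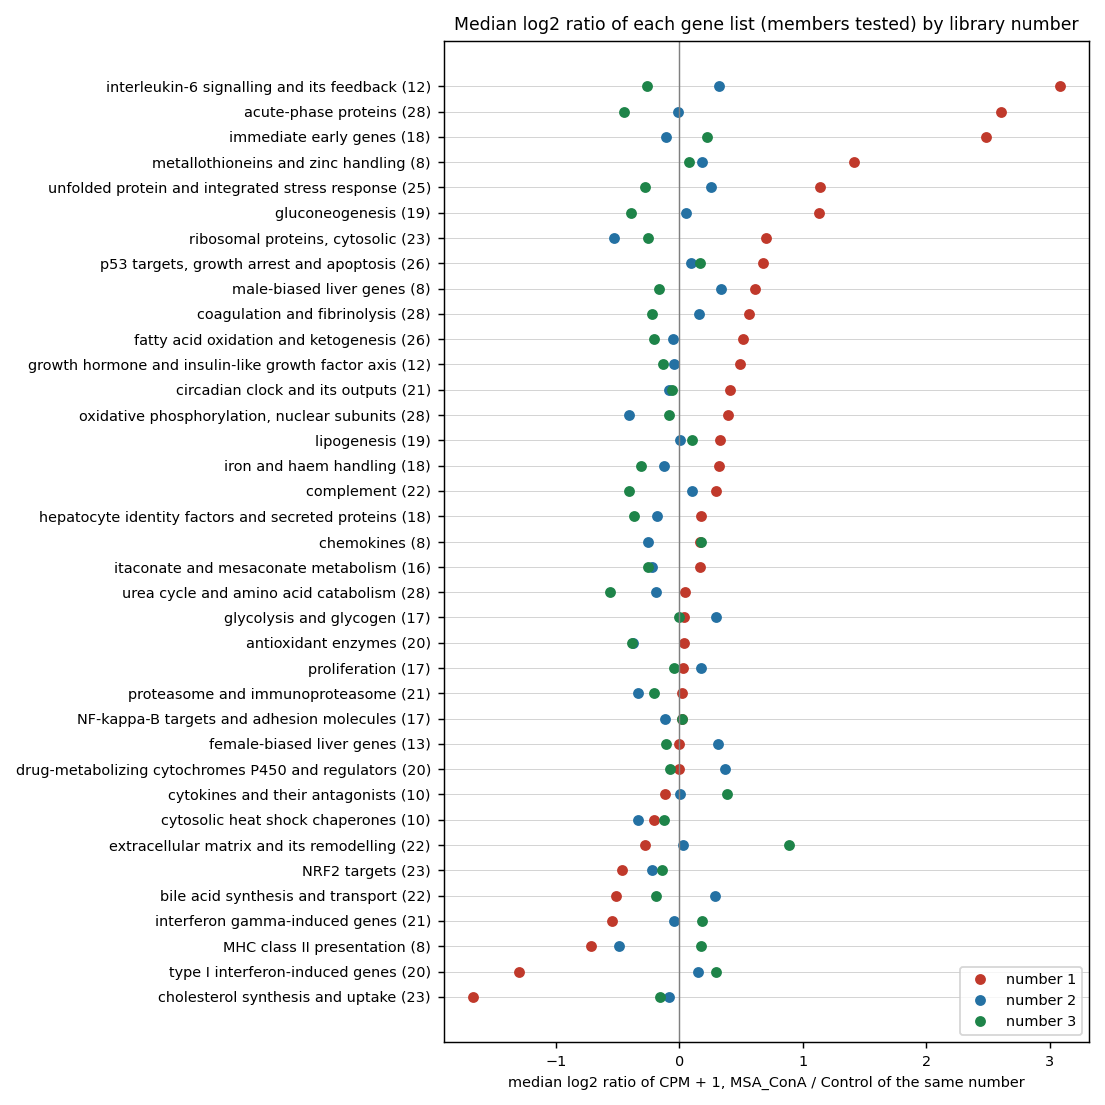
Median log2 ratio of CPM + 1, MSA_ConA over Control, of the 37 pathway lists, with the members tested in brackets and cell type markers left out,, for library numbers 1, 2 and 3. Medians in number 1 run from -1.67 for cholesterol synthesis to 3.08 for interleukin-6 signalling, while those in numbers 2 and 3 stay between -0.57 and 0.89.

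Interferon-induced genes were lower in MSA_ConA 1 than in Control 1, the opposite of the acute-phase genes in the same library. The type I interferon list had a median log2 ratio of -1.30, 0.15 and 0.29 in numbers 1, 2 and 3, with 18 of 20 members lower in number 1. The effect in number 1 was below that in numbers 2 and 3 for 13 of 20 and above it for 1 (16 and 0). Ifit1, which binds foreign RNA, measured 19.3, 5.37 and 4.68 CPM in Control and 1.71, 12.4 and 7 CPM in MSA_ConA, 11.3-fold (6.47 to 21.5) lower in number 1. Oasl2 measured 10.3, 10.6 and 5.82 CPM and 1.32, 10.1 and 10.6 CPM, and Isg15, a ubiquitin-like modifier, 38.9, 7.10 and 6.71 CPM and 8.16, 5.09 and 4.17 CPM. The interferon gamma list had a median of -0.55, -0.04 and 0.18, with the effect in number 1 lower for 9 of 21 and higher for 1 (13 and 1). Igtp, an interferon-induced GTPase, measured 46.3, 49.4 and 48.6 CPM and 4.21, 54 and 48.4 CPM, and Irgm2, of the same family, 40.7, 50.6 and 54.9 CPM and 7.37, 75.4 and 60.1 CPM. Socs1 is the list's single member called with a higher effect.

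Transcripts of T cell cytokines were at or near the counting floor. Ifng had at most 7 counts in a library, Tnf at most 9 and Il10 at most 3, so differences between the groups were not detectable at this depth. Il1b measured 1.94, 2.24 and 1.25 CPM in Control and 1.98, 1.55 and 2.21 CPM in MSA_ConA. The T cell-attracting chemokine Cxcl10 measured 13.9, 2.87 and 2.13 CPM and 2.63, 2.38 and 2.42 CPM, so that MSA_ConA 1 was level with the libraries numbered 2 and 3 and Control 1 was the highest. The neutrophil-attracting chemokine Cxcl1 measured 4.84, 6.52 and 8.58 CPM and 461, 14.1 and 10.7 CPM, with all 3 MSA_ConA libraries above Control and MSA_ConA 1 95.3-fold (74.6 to 124) above Control 1. Cxcl12, made by stroma and endothelium, measured 185, 631 and 655 CPM and 70.8, 633 and 557 CPM. Among the NF-kappa-B targets, the effect in number 1 was higher for 5 of 17 and lower for 1 (3 and 3), and the median in number 1 was 0.02, or -0.50 with library totals. Nfkbia, the inhibitor that NF-kappa-B itself induces, measured 29, 29 and 26.2 CPM and 116, 23.4 and 22.2 CPM, Bcl3, a coactivator, 51.2, 33.4 and 34.4 CPM and 214, 25.5 and 25.7 CPM, and Zc3h12a, an RNase that destroys cytokine messages, 4.77, 4.33 and 2.86 CPM and 50.0, 2.38 and 3.55 CPM.

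Growth-arrest and protein-folding stress genes were also high in MSA_ConA 1. Of 26 p53 targets and apoptosis genes tested, 12 had a higher effect in number 1 and 2 a lower one (10 and 5). The medians of this list were 0.67, 0.09 and 0.16 on the log2 scale, or 0.17 in number 1 with library totals. Gadd45g measured 30.3, 1.67 and 2.65 CPM in Control and 2212, 1.27 and 3.96 CPM in MSA_ConA, Gadd45b 2.16, 2.04 and 1.98 CPM and 194, 1.49 and 4.02 CPM, and the antiproliferative gene Btg2 9.83, 5.64 and 7.90 CPM and 608, 8.47 and 8.65 CPM. Of 25 genes of the unfolded protein and integrated stress response, 11 had a higher effect in number 1 and 2 a lower one (6 and 4), with medians of 1.14, 0.26 and -0.28, or 0.41 in number 1 with library totals. Hspa5, the main chaperone of the endoplasmic reticulum, measured 640.5, 658 and 1122 CPM and 4570.1, 999 and 992 CPM, and Herpud1, which clears misfolded proteins there, 197, 229.9 and 320.0 CPM and 2588, 249 and 193 CPM. Of 10 cytosolic chaperone genes, 1 had a higher effect in number 1 and 3 a lower one (1 and 5). Hsph1 measured 46.7, 106 and 161 CPM and 10.1, 164 and 140.2 CPM and Dnaja1 146, 200.1 and 239.6 CPM and 56.8, 237 and 225 CPM, both lowest in MSA_ConA 1. For Bag3, the 1 member called with a higher effect, MSA_ConA 1 was the highest, at 125 CPM against 28.1 CPM in Control 1.

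Genes of antioxidant defence, which the study's title names as a subject, differed in both directions. NRF2 is the transcription factor that drives detoxifying and glutathione genes, and 17 of 23 of its targets were lower in MSA_ConA 1 than in Control 1 (median log2 ratios -0.46, -0.22 and -0.14). Of the 23 targets, 6 were called with a lower effect in number 1 and 1, Hmox1, with a higher one (12 and 1, with a median in number 1 of -1.19). Hmox1, the oxygenase that degrades haem, measured 19, 17.5 and 17.7 CPM in Control and 152, 16.9 and 18.8 CPM in MSA_ConA, 7.99-fold (6.97 to 9.18) higher in number 1. Gclc, the first enzyme of glutathione synthesis, measured 186, 209 and 261 CPM and 42.5, 347 and 292 CPM, and Nqo1, a quinone reductase, 13.2, 7.93 and 9.26 CPM and 2.37, 10.3 and 7.88 CPM. Cat, the gene of catalase, which breaks down hydrogen peroxide, measured 3465, 2237 and 2466 CPM and 1209.7, 2481 and 1928 CPM. MSA_ConA 1 was the lowest of the 6 for Gclc, Nqo1 and Cat. Over the 20 antioxidant enzymes tested, 5 had a higher effect in number 1 and 1 a lower one with TMM factors. With library totals the counts were 1 and 6, where 956 and 5227 of all 14603 genes were called. Glrx, a glutaredoxin, measured 37.6, 45.8 and 48.8 CPM and 122, 42.8 and 35.4 CPM.

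Enzymes near itaconate and mesaconate showed small differences. Acod1 had 1, 0 and 2 counts in Control and 8, 0 and 0 in MSA_ConA. Of 16 other genes tested on this list, 3 had a higher effect in number 1 and 1 a lower one, against 0 and 2 with library totals. Slc13a3, a transporter of dicarboxylates, measured 22.9, 20.5 and 37.1 CPM in Control and 61, 29.5 and 17.7 CPM in MSA_ConA, which overlap. Sucla2, a subunit of succinyl-CoA ligase, measured 68.7, 137 and 140.1 CPM and 161, 161 and 157 CPM, with all 3 MSA_ConA libraries above Control. Idh1, the cytosolic isocitrate dehydrogenase, measured 418, 370.3 and 356 CPM and 203, 478 and 351 CPM.

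Fuel metabolism in MSA_ConA 1 differed from Control 1 at single enzymes. The gluconeogenesis list had a median log2 ratio of 1.13, 0.05 and -0.40, with a higher effect in number 1 for 11 of 19 and a lower one for 1 (6 and 1, with a median in number 1 of 0.49). The gene called with a lower effect was G6pc, which releases free glucose. It measured 525, 62.1 and 86.8 CPM in Control and 11.3, 68 and 75.6 CPM in MSA_ConA, 46.4-fold (37.5 to 58.1) lower in number 1. Igfbp1, a binding protein of insulin-like growth factors that fasting induces, measured 46.8, 1.46 and 5.88 CPM and 3226, 5.09 and 3.45 CPM, and Got1, the cytosolic aspartate transaminase, 234, 267 and 243 CPM and 3944, 249 and 184 CPM. Of 26 genes of fatty acid oxidation and ketogenesis, 12 had a higher effect in number 1 and 0 a lower one, against 6 and 6 with library totals. Angptl4, an inhibitor of lipoprotein lipase, measured 55.6, 34.9 and 31.2 CPM and 566, 18.8 and 22.9 CPM, and the lipid droplet coat gene Plin2 351, 357 and 325 CPM and 2617, 323 and 320.4 CPM. Lpin1, a phosphatidate phosphatase, measured 22.4, 19 and 15.5 CPM and 574, 19.8 and 34.1 CPM. Mlxipl, the carbohydrate-responsive transcription factor of lipogenesis, measured 1277, 415 and 397 CPM and 276, 343 and 329 CPM, and its groups did not overlap, although Control 1 stood far above the rest.

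Cholesterol synthesis had the lowest median of the 37 pathway lists in number 1, -1.67, -0.08 and -0.15 in numbers 1, 2 and 3. The effect there was lower for 11 of 23 members tested and higher for 1 (17 and 0). Hmgcs1, the synthase before the rate-limiting reductase, measured 506, 319 and 203 CPM in Control and 15.8, 461 and 247 CPM in MSA_ConA, 32-fold (26.7 to 38.7) lower in number 1. Sc5d, a late desaturase, measured 484, 223 and 200.2 CPM and 65.2, 341 and 232 CPM, and Mvd, a decarboxylase of the mevalonate pathway, 73.1, 45.8 and 30.6 CPM and 8.82, 23.9 and 17.6 CPM. In bile acid synthesis and transport the effect in number 1 was lower for 8 of 22 and higher for 2 (10 and 0; medians without that scaling -0.51, 0.29 and -0.19). Cyp7a1, the rate-limiting enzyme, measured 51, 438 and 549 CPM and 3.16, 1003 and 852 CPM. It was 16.1-fold (10.8 to 25.4) lower in number 1 and 2.29 and 1.55 times higher in numbers 2 and 3 (difference between the effects -4.92 on the log2 scale). Control 1 itself was below Control 2 and 3. Nr0b2, the repressor SHP that restrains Cyp7a1, measured 86.3, 39.5 and 88.5 CPM and 1.84, 46.6 and 44.4 CPM, and Abcb11, the bile salt export pump, 908, 423 and 585 CPM and 156, 676 and 421 CPM.

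Amino acid catabolism was divided. Of 28 urea cycle and amino acid genes tested, 8 had a higher effect in number 1 and 5 a lower one, against 4 and 10 with library totals. Tat, the tyrosine transaminase that glucocorticoids induce, measured 1468, 983 and 932 CPM in Control and 15562, 767 and 599 CPM in MSA_ConA, and Sds, serine dehydratase, 315, 153 and 126 CPM and 2318, 95.7 and 50.1 CPM. Hal, the first enzyme of histidine breakdown, measured 698, 259.6 and 297 CPM and 85.5, 293 and 199 CPM. In number 3, 27 of these 28 genes were lower in MSA_ConA than in Control, with a median log2 ratio of -0.57. Over all genes tested, 7329 were higher there and 7264 lower. Other hepatocyte lists also leaned downward in number 3, with 17 of 18 identity genes and secreted proteins and 18 of 22 complement genes lower. MSA_ConA 3 held 4892 CPM of muscle markers, and their part was not tested. In numbers 2 and 3 together, 12 of the 28 were lower at an unadjusted p under 0.05 by edgeR, where 12.6% of all genes were. Por, the reductase that serves the cytochromes P450, measured 257, 449 and 450.3 CPM and 1769, 318 and 241 CPM.

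Of 18 genes of iron and haem handling, 6 had a higher effect in number 1 and 2 a lower one, where the shares over all genes were 16% and 16.6%. With library totals the counts were 5 and 4, where 956 and 5227 of all 14603 genes were called. Hamp, the gene of hepcidin, the hormone that blocks iron export, measured 343, 1039 and 643 CPM in Control and 5914, 594 and 408 CPM in MSA_ConA, and Slc40a1, the exporter ferroportin, 70.0, 188 and 208 CPM and 4.48, 244 and 211 CPM. Of 18 hepatocyte identity genes and secreted proteins, 11 were higher in MSA_ConA 1 than in Control 1, and 5 had a higher effect in number 1 and 3 a lower one (1 and 6). The factors Foxa1, Foxa2 and Foxa3, which keep hepatocyte genes open, were among the lower members, lowest in MSA_ConA 1 at 6.98, 5.53 and 4.74 CPM, against 29.9, 52.3 and 32.9 CPM in Control 1. For Foxa1 and Foxa2 all 3 MSA_ConA libraries were below Control. Alb, the gene of albumin, measured 76678, 77839 and 100174 CPM and 94076, 86736 and 84501 CPM, which overlap. Clock genes with a higher effect in number 1 were 8 of 21, with 1 lower (7 and 5 with library totals). Per1, a clock repressor that glucocorticoids also induce, measured 6.26, 36.1 and 21.1 CPM and 356, 14.9 and 23.8 CPM, Nfil3 29.6, 9.91 and 15.4 CPM and 568, 15.7 and 8.39 CPM, and Bhlhe40 44.2, 132 and 140.4 CPM and 633, 135 and 179.5 CPM. Within Control, the clock output gene Dbp measured 10.3, 251 and 222 CPM, so number 1 was also apart from numbers 2 and 3 without any injection of lectin.

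Markers of other cell types differed between libraries, and their part in the results was not tested. In bulk tissue, fewer cells of a type and less RNA per cell cannot be told apart. The 6 Kupffer cell markers, of the resident liver macrophages, summed to 330.4, 290.2 and 205 CPM in Control and 119, 250.3 and 193 CPM in MSA_ConA, and 2 of 6 had a lower effect in number 1. Clec4f, a lectin of these cells, measured 185, 140.3 and 101 CPM and 57.8, 119 and 91.9 CPM. The 5 markers of sinusoidal endothelium summed to 184, 250.1 and 221 CPM and 98.8, 233 and 262 CPM. The 6 neutrophil markers summed to 2.61, 2.87 and 0.988 CPM and 56.1, 1.66 and 2.26 CPM; in MSA_ConA 1 the calprotectin genes S100a8 and S100a9 made up 17.6 and 28.4 CPM, and 1 of the 6 was at 0. The 7 T and NK cell markers summed to 6.70, 6.11 and 4.32 CPM and 4.21, 4.48 and 4.84 CPM, which overlap, with 2 of 7 at 0 in MSA_ConA 1.

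Skeletal muscle transcripts were high in MSA_ConA 2 and 3, and adipocyte transcripts in MSA_ConA 1 and 3. The 14 muscle markers summed to 1.56, 2.30 and 0.988 CPM in Control and 121, 360.2 and 4892 CPM in MSA_ConA. In MSA_ConA 1, Atp2a1 made up 119 CPM of the sum and 9 of the 14 markers were at 0, while in MSA_ConA 2 and 3 it was 1 marker each. Acta1, the actin of skeletal muscle, measured 0, 0.365 and 0 CPM and 0.263, 107 and 1468 CPM, and Ttn, the gene of titin, 0.447, 0.522 and 0.208 CPM and 0.527, 59.7 and 655 CPM. All 13 muscle markers tested passed 4-fold upward in number 3, beside 177 of all genes. The 7 adipocyte markers summed to 15.9, 13.2 and 7.96 CPM and 493, 9.79 and 131 CPM. In MSA_ConA 3 none of the 7 was at 0, with Fabp4, a fatty acid carrier, at 71.7 CPM, while in MSA_ConA 1 Cidec made up 441 CPM and 3 were at 0. Extracellular matrix genes were higher in MSA_ConA 3 for 20 of 22 (median log2 ratio 0.89), among them Col3a1, a fibrillar collagen, at 54.1, 32.4 and 37.6 CPM and 7.90, 36.1 and 135 CPM.

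**Figure D4:**
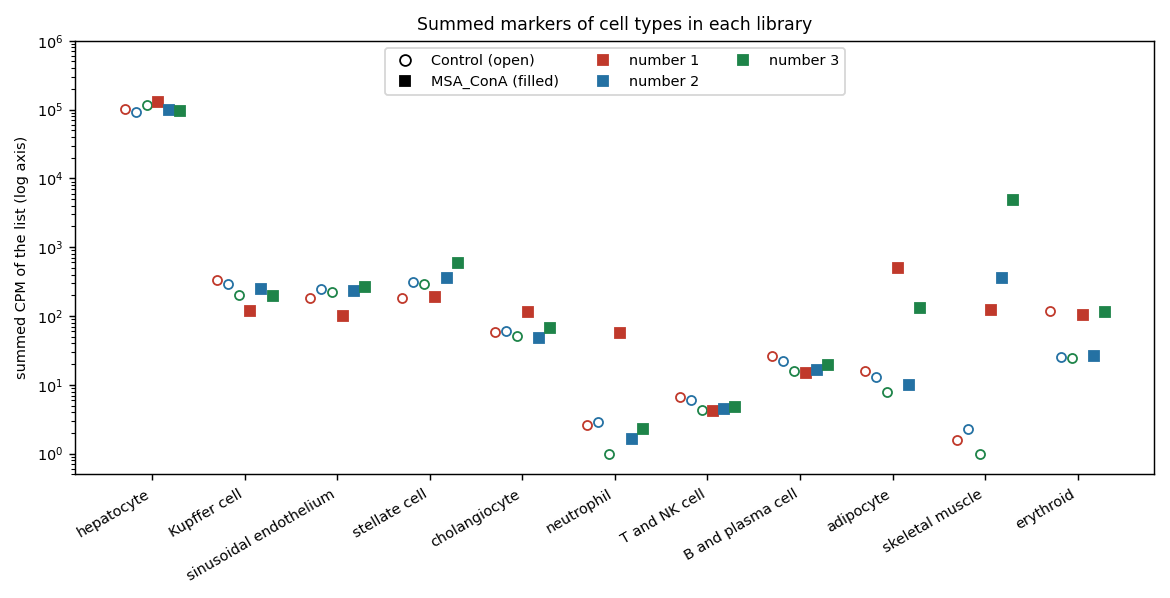
Summed CPM of the markers of 11 cell types in each library, on a log axis, with Control open, MSA_ConA filled and the library number as colour. Skeletal muscle markers reach 360.2 and 4892 CPM in MSA_ConA 2 and 3 against at most 2.30 CPM in Control, and neutrophil markers reach 56.1 CPM in MSA_ConA 1.

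In the libraries numbered 2 and 3, which resemble each other, no gene passed the test either, while many had a small unadjusted p. edgeR called 0 of 14851 genes at an adjusted p under 0.05, with a smallest adjusted p of 0.0823, while 3578 (24.1%) had an unadjusted p under 0.05, 1711 higher (11.5%) and 1867 lower (12.6%), where chance gives 743. DESeq2 called 1311 genes on the same libraries (8.83%), edgeR without the filter on low counts 1396, and limma-voom 0 (3287 unadjusted). Without the library labelled MSA_ConA 2, edgeR called 507, of which 446 were higher, with MSA_ConA 3, the library highest in muscle markers, then alone for its group and assumed to vary like the others.

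Genes with the smallest p upward that kept their 4 libraries apart included Adgrl4, an adhesion receptor of endothelium, at 9.31, 10.8 and 10.4 CPM in Control and 7.37, 21.4 and 25 CPM in MSA_ConA. Its log2 fold change in numbers 2 and 3 was 1.13 (SE 0.16, adjusted p = 0.0823 by edgeR). Rock2, a kinase of the actin skeleton, measured 16.3, 26.6 and 24.4 CPM and 17.2, 42.7 and 50.8 CPM, and Peg3, an imprinted zinc finger gene, 8.34, 10.5 and 11.1 CPM and 6.58, 21.2 and 20.6 CPM. Mob4, a subunit of a phosphatase complex, measured 16.1, 23.6 and 26 CPM and 29.6, 41.9 and 45.5 CPM, with ratios of 1.84, 1.78 and 1.75 in numbers 1, 2 and 3. Trp53inp1 belongs here too, and Ttn, Acta1 and Myh1 are genes of muscle. Downward, Edf1, a transcriptional coactivator, measured 327, 131 and 103 CPM and 313, 33.6 and 32.8 CPM (log2 fold change -1.82, SE 0.24, adjusted p = 0.0823 by edgeR). Within number 1 it was level. Blvrb, a biliverdin reductase, measured 269, 75.1 and 63.8 CPM and 174, 30.4 and 28.3 CPM, Fkbp2, a folding enzyme of the endoplasmic reticulum, 143, 58.1 and 43.8 CPM and 134, 17.5 and 16.4 CPM, and Zfpm1, a cofactor of GATA factors, 59, 85.8 and 95.1 CPM and 48.6, 41.9 and 45.3 CPM.

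Gene length and GC content moved with the difference in numbers 2 and 3. The 1711 genes that were higher had a median length of 5197 bases and a median GC content of 43.2%, and the 1867 lower ones 2445 bases and 55.6%, against 3528 bases and 49.7% over all genes tested. In 4 classes of equal size from the shortest to the longest genes, the median log2 fold change was -0.17, -0.05, 0.07 and 0.24. With offsets for GC content and length, an alternative chosen after seeing the data, 1650 of the 12945 genes with a known GC content had an unadjusted p under 0.05, where the fit without offsets had 3221 among the same genes, and edgeR again called 0. Ribosomal protein genes, which are short, were lower in all 23 members tested in number 2 and in 19 of 23 in number 3, and higher in all 23 in number 1 (medians 0.70, -0.53 and -0.26). The effect in number 1 was higher for 16 of the 23, and for 1 with library totals, where their median in number 1 is 0.00. Rps3 measured 220.4, 240.3 and 232 CPM and 489, 180.3 and 179 CPM, and Rpl18 30.6, 16.8 and 17.9 CPM and 81.5, 5.87 and 7.16 CPM; ribosomal protein genes share reads with their many pseudogenes. Nuclear genes of oxidative phosphorylation had medians of 0.40, -0.41 and -0.08, or -0.33 in number 1 with library totals, and 8 of 28 had a higher effect in number 1, against 0 higher and 3 lower with library totals. Ndufb8, a subunit of complex I, measured 75.4, 54.8 and 42.1 CPM and 130.1, 26.1 and 30.2 CPM.

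**Figure D5:**
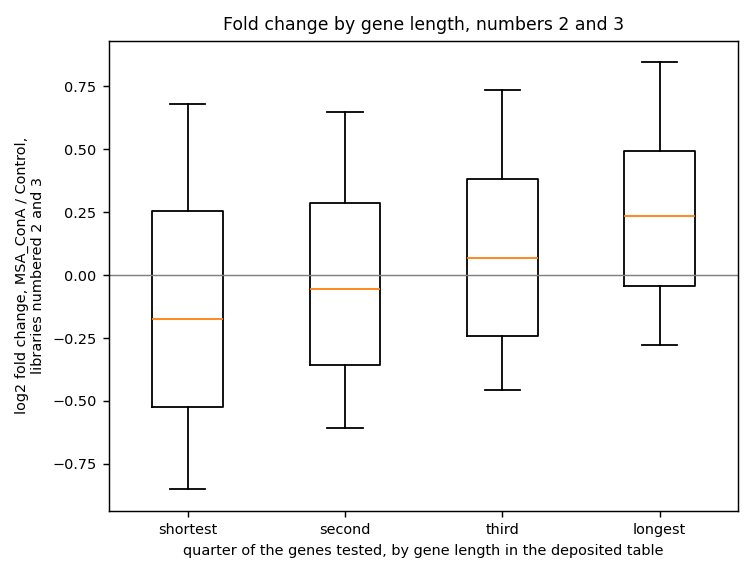
Log2 fold change of MSA_ConA against Control in the libraries numbered 2 and 3, in 4 classes of equal size by gene length; boxes show the median and the middle 50% of genes, whiskers the 10th and 90th percentiles. The medians run from -0.17 in the shortest class to 0.24 in the longest.

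The third group of the series, given 20 mg/kg of concanavalin A alone, shares these Control libraries, so its values are set beside the others without a test. In the libraries labelled ConA 1, 2 and 3, Cxcl10 measured 3505, 3.65 and 2.27 CPM and Ifit1 250.0, 7.10 and 5.28 CPM. Mt2 measured 10435, 5.25 and 13.5 CPM there, Lcn2 10608, 11.8 and 7.44 CPM, Fgb 25739, 2879.7 and 3176 CPM and Rab30 65.4, 7 and 7.38 CPM. Library 1 was the highest of that group for each of these 6 genes. Scd1 measured 1546, 2315 and 4334 CPM and Trp53inp1 476, 27 and 25.4 CPM. Muscle markers summed to 3.29, 379 and 65.7 CPM and adipocyte markers to 144, 108 and 9.20 CPM in those libraries, so ConA 2 was close to MSA_ConA 2 in muscle markers.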

How the data were processed

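Liver RNA was isolated with Trizol and sequenced from libraries of an Illumina kit, per the labels' protocols. The authors deposited raw counts per gene and FPKM values (counts scaled by gene length and library size) for 9 libraries. Only the counts were tested; the deposited FPKM values implied 1 constant total per library when set against counts over length. Per the submitters' processing notes, Bowtie 0.12.2, mm8 and mm10 were used, with no role given; the counting tool is not given in the sources used here. Gene identifiers and coordinates in the files are of the C57BL/6NJ assembly, and no coordinates from them are printed. Strandedness is not stated, so overlapping and antisense genes cannot be told apart.

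Counts were fitted with edgeR 4.0.16 (R 4.3.3), quasi-likelihood, TMM scaling and the default expression filter, in 3 fits: all 9 libraries by group (6 residual degrees of freedom), the 6 libraries numbered 2 and 3 (3), and group by number class (3), which tests whether the effect differs. Alternatives used DESeq2 1.42.0, limma-voom (limma 3.58.1), other scalings and filters, and a replicate block. Control and MSA_ConA libraries were also left out 1 at a time, except those numbered 1 in the fit of the difference. List medians used log2(CPM + 1). On simulated counts with 200 changed genes, the fit of numbers 2 and 3 (14574 genes) recovered 22% of 2-fold and 76% of 4-fold changes. The fit of the difference (14437 genes) recovered 42% of 4-fold and 72% of 8-fold changes. Unchanged genes were also called, 3 over all libraries, 16 in numbers 2 and 3 and 9 for the difference.

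The comparison, its gene lists, the division by number and the tests were chosen with earlier results of these data known. Of 876 entries in 50 lists, 807 matched a symbol and 1 a synonym. Named genes are those with the largest changes called, the 12 highest and lowest number-1 ratios with at least 50 CPM, the 8 smallest p each way in numbers 2 and 3, the 10 widest gaps each way, up to 4 members per list by size in number 1, and 15 fixed symbols; not all are printed. Same-numbered libraries of the 2 groups correlated at 0.479, 0.374 and 0.303 in their deviations from the group means, all over the bound of 0.1. The number entered as a block in alternative fits only. MSA_ConA 2 correlated at 0.449 with Control 3 and MSA_ConA 3 at 0.339 with Control 2, each above its same-numbered value. With number 1 apart in each group, deviations of numbers 2 and 3 share a direction, so these values cannot show a pairing of 2 with 2 or 3 with 3.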

Additional observations from a re-analysis of the deposited data

Results flagged for a closer look

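Of 14603 genes, 4767 passed an edgeR test of the difference in MSA_ConA against Control between number 1 and numbers 2 and 3 (Benjamini-Hochberg adjusted p under 0.05). The split by number was chosen with earlier results known, and its number-1 arm has 1 library per group, whose spread is borrowed from the others, so the count has no replicate check of its own. The libraries numbered 1 and the others also differ in Xist, Nnt and clock genes within Control.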

How the results depend on the processing

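Over all libraries the count stayed at 0 under every alternative except DESeq2, which called 55. Leaving out each Control or MSA_ConA library in turn gave 0 every time, and ConA libraries were not left out singly. In numbers 2 and 3, DESeq2 called 1311 and the fit with no filter 1396, leaving out 1 library gave 0 to 507, and every other alternative gave 0. The effect differed for 2075 genes at an adjusted p under 0.01. It differed for 3646 to 4197 when 1 of the Control or MSA_ConA libraries numbered 2 and 3 was left out. Those numbered 1 cannot be left out of this fit, so the range says nothing of how far the count rests on them. With library totals, 331 genes were at least 4-fold higher and 951 lower in number 1, and 432 were higher without overlap. With a pseudocount of 5 CPM, 173 were 4-fold lower in number 1, 16 higher and 5 lower in number 2, and 2 lower in number 3. In numbers 2 and 3 alone, chosen after seeing the data, 4006 genes were higher and 4036 lower without overlap. Groups of 2 libraries stay apart by chance more often than groups of 3, so these 2 counts cannot be set against those of all libraries. The cause of these changes was not tested. When the number entered edgeR as a replicate block, it called 0 genes over all libraries (1096 unadjusted), 0 in numbers 2 and 3 (3135 unadjusted, smallest adjusted p 0.132) and 3926 for the difference between the effects. Among the printed genes, Cdkn1a and Cidec lost the call of a difference without Control 2 (adjusted p = 0.0589 and 0.0653 by edgeR). No called gene named here turned its direction, while library totals turned the median in number 1 of several lists, as given beside them. Depth limits transcripts under about 3 counts, which is 0.395 CPM in MSA_ConA 1 and 0.154 to 0.223 CPM in the other 5 libraries.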

Other observations

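Several further lists held members in both directions, and counts in brackets are with scaling to library totals. A higher or lower effect again means a gene that passed the test of the difference. The shares over all genes were 16% and 16.6%, and with library totals 956 and 5227 of 14603 genes were called. Counts near these are no result about a list. Of 17 glycolysis and glycogen genes tested, 7 had a higher effect in number 1 and 4 a lower one (4 and 8). The counts were 4 and 5 of 19 for lipogenesis (2 and 8) and 5 and 4 of 20 for drug-metabolizing cytochromes P450 and their regulators (2 and 7). Of 17 proliferation genes, 1 had a higher effect and 0 a lower one (1 and 3), and Pcna, the sliding clamp of DNA replication, measured 25.3, 27 and 26.3 CPM in Control and 39.4, 30.5 and 24.3 CPM in MSA_ConA. Of 8 genes of MHC class II presentation, all 8 were lower in MSA_ConA 2 than in Control 2 and 7 lower in number 1, while 7 were higher in number 3; Cd74, the invariant chain, measured 86.2, 67 and 47.7 CPM and 47.8, 36 and 59.4 CPM. Of 22 complement genes, 2 had a higher effect in number 1 and 1 a lower one (1 and 4), and C1qc, made by macrophages, measured 53.2, 39 and 24.7 CPM and 22.4, 18.8 and 17.3 CPM with no overlap.

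Elovl3, a fatty acid elongase of male liver, measured 524, 1.88 and 0.624 CPM in Control and 19.6, 3.15 and 0.515 CPM in MSA_ConA, so that Control 1 stood above MSA_ConA 1, and both above every library numbered 2 or 3. Mup21, of the urinary pheromone carriers, measured 285, 1.04 and 0.416 CPM and 668, 0.885 and 1.44 CPM. Gucy2c, a guanylate cyclase receptor, had no count in Control 1 and 17.4 CPM in MSA_ConA 1, while the 4 other libraries held 14.9 to 22.3 CPM.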
